A study of Mus musculus with 21 samples.

Results

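The genes described here are Clk1, Clk2, Clk3, Clk4, Ogt and Mat2a, 6 of the 23827 rows of each deposited expression table. They were taken by gene symbol, as genes whose mRNAs are known to keep introns while in the nucleus, and each symbol had exactly 1 row in every table. The choice was made with earlier results of these data known. The question was how the level of each mRNA in ribosome-bound RNA compared with its level in total RNA, in forebrain and kidney of E14.5 mouse embryos and in cell types of these organs. All embryos carried the allele Gt(ROSA)26Sor-mCherry-Rpl10a+/-, in which the CAGGS promoter drives an mCherry-tagged ribosomal protein after Cre removes a stop, and which derives from a single targeted ES cell clone. Sox2Cre+/- tagged the ribosomes of the whole embryo, Cdh5CreERT2+/- with tamoxifen those of endothelial cells and Emx1Cre+/- those of the dorsal forebrain lineage. The 21 libraries fall into 7 groups of 3: brain transcriptome and kidney transcriptome (total RNA, Sox2Cre), brain translatome and kidney translatome (RNA bound to tagged ribosomes, Sox2Cre), brain endothelial, kidney endothelial and Emx1-lineage translatomes. Organs were pooled for a library, and the transcriptome and translatome libraries with the same number came from the same tissue sample. The total RNA was also taken from the centrifuged extract, so the share of nuclear RNA it holds is not known.

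CLK kinases phosphorylate SR proteins, the serine and arginine rich splicing factors that gather in nuclear speckles, and so set how active these factors are. In many cells much of the Clk1 and Clk4 RNA is polyadenylated but keeps introns on either side of exon 4, stays in the nucleus and can be spliced later, when kinase activity falls. Ogt, the enzyme that attaches O-GlcNAc to nuclear and cytoplasmic proteins, and Mat2a, the enzyme that makes the methyl donor S-adenosylmethionine, are controlled through retained introns that respond to O-GlcNAc and S-adenosylmethionine levels. RNA of this kind has no access to ribosomes, which is why ribosome-bound and total RNA were set side by side for these genes.

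Introns that annotated intron-retaining transcripts of these genes hold, wholly or in part, are shown first, 1 for each gene. They were picked from the annotation, and whether they are the introns through which each gene is controlled was not tested. The tables hold reads per gene and none per intron. In GENCODE vM21 on GRCm38, the build the reads were mapped to, Clk1 lies at chr1:58410189-58424066 on the minus strand, Clk2 at chr3:89164795-89176921 on the plus strand, Clk3 at chr9:57750624-57765860 on the minus strand, Clk4 at chr11:51261730-51281766 on the plus strand, Ogt at chrX:101640060-101684351 on the plus strand and Mat2a at chr6:72432799-72439558 on the minus strand. Each is a protein-coding gene for which GENCODE also lists transcripts of the class retained_intron: 7 for Clk1, 4 for Clk2, 4 for Clk3, 7 for Clk4, 3 for Ogt and 3 for Mat2a. In all 4 Clk genes at least 1 of these transcripts runs through the whole of intron 4, and all 3 of the Ogt transcripts run into intron 4 of Ogt and end there. The only Mat2a intron held whole was intron 2. The start of each of these introns is given below, 5′ to 3′, with the last 12 exon bases in capitals and the first 18 intron bases in lower case; all 6 introns lie between coding exons.
Clk1 intron 4, chr1:58419734-58420120: TAAGTGCAAGATgtatagaatatttttcaa
Clk4 intron 4, chr11:51273169-51273559: TAAGAGCAAGATgtatagaatatttttcaa
Clk2 intron 4, chr3:89169703-89170048: TACAAGAGCGATgtacaagccaaatcgtaa
Clk3 intron 4, chr9:57758351-57758626: TCCAAGAGCGATgtacagccacctttcgta
Ogt intron 4, chrX:101652209-101655623: GAAGAAGCCAAGgtaggtgtttgctagaac
Mat2a intron 2, chr6:72437118-72437370: AAGTGGCTTGTGgtaggtacagagcacttg
Clk1 and Clk4 were identical at 29 of these 30 bases, including all 18 intron bases. Over the 4 Clk genes 11 of the 30 bases were shared.

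Exon 4, which ends at this boundary, was 91 bases long in Clk1 and Clk4, 85 in Clk2 and 97 in Clk3. None of these lengths is a multiple of 3, each leaving 1 base, so transcripts that skip the exon change reading frame. Among the transcripts that GENCODE classes as nonsense_mediated_decay, 2 of Clk1, 1 of Clk2, 1 of Clk3 and 2 of Clk4 skip it. Transcripts of other classes were not searched for the skip. The 91-base exons of Clk1 and Clk4 were identical at 85 positions. They are shown in lower case with the last 12 bases in capitals, the bases that also open the lines above.
Clk1 exon 4, chr1:58420121-58420211: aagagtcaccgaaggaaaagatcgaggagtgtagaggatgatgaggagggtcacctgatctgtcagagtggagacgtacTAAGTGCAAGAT
Clk4 exon 4, chr11:51273078-51273168: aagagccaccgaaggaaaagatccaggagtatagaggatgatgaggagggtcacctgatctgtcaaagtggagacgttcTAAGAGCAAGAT
How reads that fit both genes were shared between them is not given in the sources used here.

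Total counts per library ranged from 21760652 to 79231692 reads, lowest in the kidney translatome at 21760652 to 24605124. Every library held at least 543 reads on each of the 6 genes, the lowest number being that of Clk4 in kidney translatome replicate 3. The summed RPKM of 7 endothelial markers was 2665 to 2803 in the brain endothelial libraries against 137 to 158 in the brain translatome, and 1774 to 2063 in the kidney endothelial libraries against 316 to 341 in the kidney translatome. Neural markers (4 genes) still summed to 316 to 414 RPKM in the brain endothelial libraries, against 1809 to 1850 in the brain translatome. The Emx1-lineage libraries held 1124 to 1201 RPKM of 6 dorsal telencephalon markers against 543 to 563 in the brain translatome. In these bulk libraries, fewer cells of a type and less RNA per cell cannot be told apart.

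**Figure D1:**
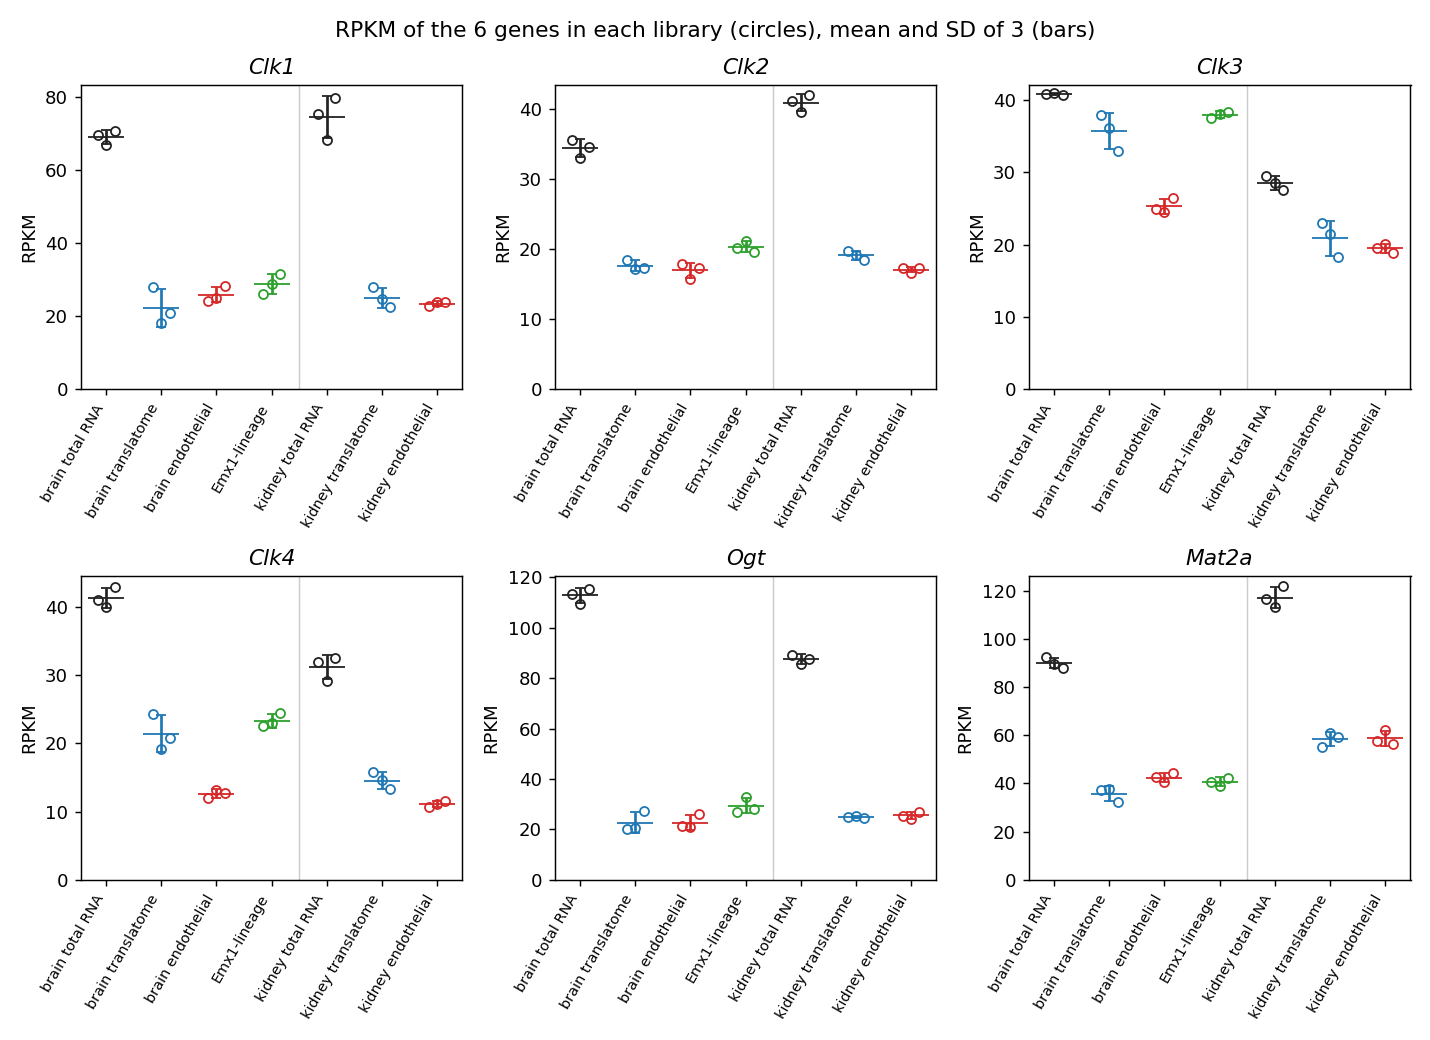
RPKM (reads scaled to transcript length and library size) of each gene in all 21 libraries, by group. Circles are libraries, horizontal bars are group means and whiskers are SDs of 3; every total RNA library of an organ lies above every ribosome-bound library of that organ for each of the 6 genes, narrowly for Clk3.

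Of the 6 mRNAs, 5 were lower in the brain translatome than in the brain transcriptome and all 6 were lower in the kidney translatome than in the kidney transcriptome, at an adjusted p under 0.001 (edgeR quasi-likelihood test, 3 against 3 libraries). Of all rows tested, 18.5% were lower in brain and 15.8% in kidney by the same rule, and 27.0% and 26.1% of mRNA rows with at least 5 RPKM in total RNA. The 6 genes had a median log2 fold change of -1.12 (brain) and -1.10 (kidney), against 0.03 and 0.00 for those mRNA rows. Ogt and Clk1 fell most, by 3.52- to 4.89-fold, and Clk3 least. The counts were the same with DESeq2, with the replicate number as a block, and when only libraries of a shared sequencing lane were compared (5 in brain, 6 in kidney). Cell markers moved between the fractions too. The 5 red blood cell genes, of which Hba-a1 was at 0 in every library, summed to 300.14 to 572 RPKM in kidney total RNA and 80.7 to 155 RPKM in the kidney translatome, and to 153 to 371 and 83.8 to 176 RPKM in brain. The 7 endothelial markers were at 85.5 to 111 RPKM in brain total RNA and 137 to 158 RPKM in the brain translatome (233 to 255 and 316 to 341 in kidney), and the 4 neural markers at 1439 to 1544 and 1809 to 1850 RPKM in brain. The part of these shifts in the result was not tested.

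Clk1, the kinase gene for which nuclear intron-retaining RNA is best known, had 69.7, 66.8 and 70.6 RPKM in the 3 brain transcriptome libraries and 28.0, 18.0 and 20.8 RPKM in the brain translatome. In kidney it had 75.3, 68.3 and 79.7 RPKM in total RNA and 27.9, 24.6 and 22.4 RPKM on ribosomes. The groups lay far apart in both organs, although the brain translatome libraries themselves varied by 23.1% (coefficient of variation), with replicate 1 the highest. On the RPKM scale the ribosome-bound level was 32.2% ± 7.46 of the total in brain and 33.5% ± 3.72 in kidney (SD of 3 translatome libraries). Such a percentage compares levels that are each relative to their own library, and is not the share of the mRNA that was bound to ribosomes. On read counts, the log2 fold change was -1.95 ± 0.115 (SE, adjusted p = 4.8e-09) in brain and -1.92 ± 0.076 (adjusted p = 4.2e-08) in kidney. Only 0.6% of 9632 mRNA rows fell more in brain and 0.2% of 9804 in kidney.

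The read count and RPKM scales gave different sizes for Clk1, 3.95-fold in reads scaled to library size alone against 3.10-fold in RPKM in brain and 3.78-fold against 2.98-fold in kidney. Reads divided by RPKM give the length that the authors' program used for a row, up to a factor common to the library. For 6712 rows with a single RefSeq accession and at least 200 reads in every library this length was constant, no library departing from the mean of a row by more than 0.000385%. The Clk1 row pools 3 accessions, 1 coding and 2 noncoding, and its length depends on how the reads fall among them. With Ogt set to the 5384 bases of its GENCODE transcript, the implied length of Clk1 was 2376, 2317 and 2333 bases in the brain transcriptome and 2320, 2343 and 2328 in the kidney transcriptome. In the brain translatome it was 1833, 1823 and 1839 bases, and over all 15 ribosome-bound libraries 1821 to 1884 bases. The 6 total RNA libraries thus all had a longer Clk1 row than any ribosome-bound library, and the mean length on ribosomes was 78.8% of that in total RNA. The coding Clk1 transcript of GENCODE has 1796 bases. GENCODE and the implied lengths also differ in rows of a single accession: 1949 against 1892 bases for Clk4 and 2804 against 2591 for Mat2a. The ribosome-bound length of Clk1 can therefore not be matched to that transcript.

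This shift was not general. Among 2277 rows that pool several accessions, 23 (1.01%) had a ribosome-bound range wholly below the total RNA range with a difference of 1.1 times or more, and 9 of the 2277 rows (0.395%) had a larger fall than Clk1. Clk2, whose row pools 2 coding accessions, stayed between 2307 and 2310 bases in all 21 libraries. How far the Clk2 row could move depends on how unlike its 2 accessions are in length, which was not tested. The rows of Clk3, Clk4, Ogt and Mat2a hold 1 accession each, so a change of isoform could not show in them. The SR protein gene Srsf7, named after its values were seen, had 2441 to 2464 bases in total RNA and 2285 to 2308 bases on ribosomes. Which accession carried the additional Clk1 reads in total RNA cannot be read from these tables.

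**Figure D2:**
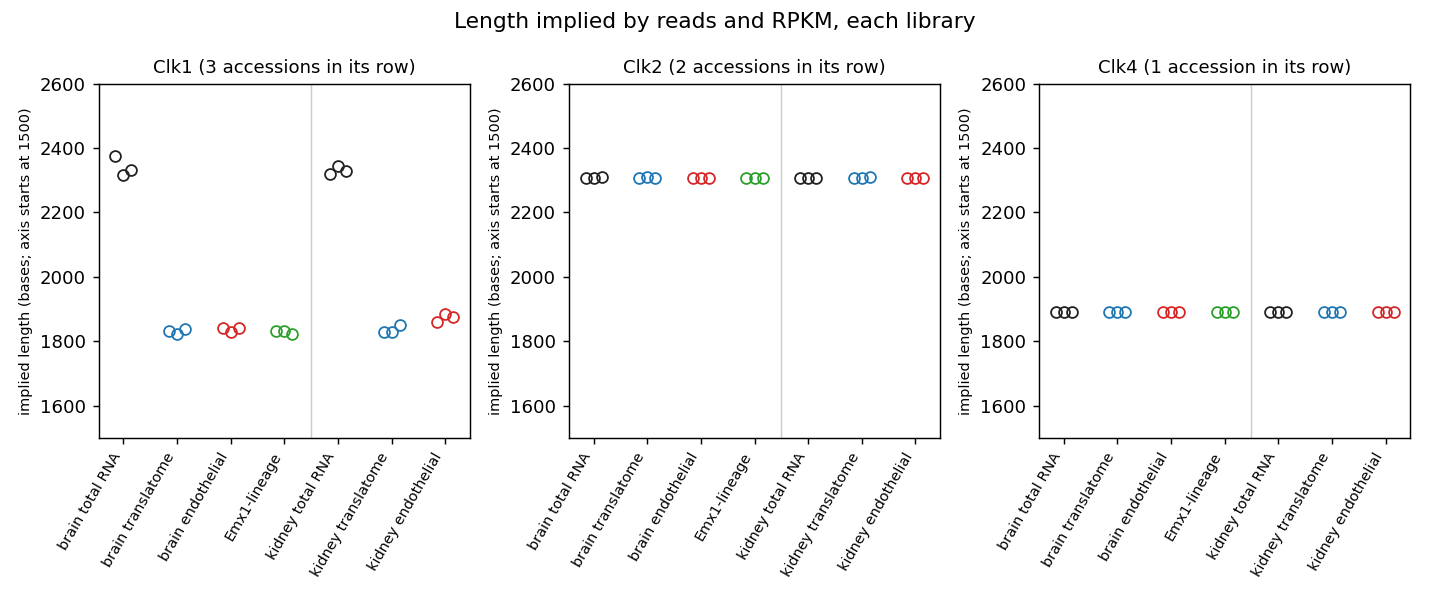
Length in bases implied by the ratio of reads to RPKM for the rows of Clk1, Clk2 and Clk4 in each of the 21 libraries (circles), with an axis that does not start at 0. Clk1 (3 accessions) separates into 2317 to 2376 bases in total RNA and 1821 to 1884 bases in ribosome-bound RNA. Clk4 has 1 accession, so its length could not move. Clk2 (2 accessions) lies at 2307 to 2310 bases, and how far its row could move was not tested.

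Clk4, the closest relative of Clk1 in the sequences above, had 41.0, 40.0 and 43 RPKM in the brain transcriptome and 24.4, 19.1 and 20.8 RPKM in the brain translatome. In kidney the values were 31.9, 29.1 and 32.5 RPKM in total RNA and 15.8, 14.6 and 13.2 RPKM on ribosomes. The groups did not overlap in either organ. The log2 fold change was -0.92 ± 0.079 in brain (SE, adjusted p = 2.2e-07) and -1.10 ± 0.075 in kidney (adjusted p = 8.6e-07).

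Clk2 had 35.6, 33.1 and 34.5 RPKM in the brain transcriptome and 18.5, 17.1 and 17.3 RPKM in the brain translatome. In kidney it had 41.1, 39.6 and 42.0 RPKM in total RNA against 19.7, 19.2 and 18.5 RPKM on ribosomes. Libraries of a group lay close together and the groups were well apart. Its log2 fold change was -0.93 ± 0.059 in brain (SE, adjusted p = 9.2e-09) and -1.10 ± 0.045 in kidney (adjusted p = 5e-08). Its RPKM in the translatome was 51.3% ± 2.21 of its RPKM in total RNA in brain and 46.7% ± 1.55 in kidney.

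Clk3 stood apart from the other 3 kinases. It had 40.9, 40.9 and 40.7 RPKM in the brain transcriptome and 37.9, 36.2 and 33.0 RPKM in the brain translatome, or 87.4% ± 6.13. The ranges were apart but close, and the log2 fold change of -0.16 (95% interval -0.28 to -0.05, adjusted p = 0.018) did not pass the threshold. In kidney, total RNA had 29.4, 28.5 and 27.5 RPKM and the translatome 23.0, 21.5 and 18.2 RPKM. The log2 fold change there was -0.45 ± 0.075 (adjusted p = 0.00048). This call was lost with a filter of 10 counts in 3 libraries (adjusted p = 0.0012) and without kidney transcriptome replicate 1 (0.0019), kidney transcriptome replicate 2 (0.001) or kidney translatome replicate 2 (0.002).

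The Clk3 row may hold reads of another gene. Exons of its coding transcript (2496 bases) overlap exons of Edc3, an mRNA decapping factor on the opposite strand. The overlap sums to 997 bases over all annotated Edc3 exons. Any base under several of these exons is counted more than once, so the shared part is at most 997 bases. The library kit does not mark strand, so reads in the shared part cannot be assigned to either gene. The Edc3 row itself had 19.8 ± 0.128 RPKM in the brain transcriptome and 20.2 ± 0.332 RPKM in the brain translatome, with a log2 fold change of 0.06 (adjusted p = 0.37). In kidney it was 22.4 ± 0.379 against 18.4 ± 0.467 RPKM, with a log2 fold change of -0.28 (adjusted p = 0.00021). The part of Edc3 reads in the Clk3 values was not tested. Among the other members, Mat2a shared at most 213 exon bases with Particl, an unclassified opposite-strand transcript, and the remaining 4 coding transcripts shared none.

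Ogt had the highest level of the 6 in brain total RNA, at 113, 110 and 115 RPKM, and 20.0, 20.4 and 27.5 RPKM in the brain translatome. In kidney it had 89.3, 85.4 and 87.7 RPKM in total RNA and 24.9, 25.1 and 24.4 RPKM on ribosomes. The highest translatome value of either organ, 27.5 RPKM, lay far below the lowest value in total RNA, 85.4 RPKM. Its log2 fold change was -2.29 ± 0.104 in brain (SE, adjusted p = 5e-10) and -1.82 ± 0.041 in kidney (adjusted p = 5.9e-09). Only 0.3% of mRNA rows fell more in either organ.

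Mat2a had 92.3, 89.7 and 87.9 RPKM in the brain transcriptome and 37.3, 37.7 and 32.1 RPKM in the brain translatome. In kidney, where it was the most abundant of the 6 per length, it had 116, 113 and 122 RPKM in total RNA and 55.3, 61.0 and 59.4 RPKM on ribosomes. The groups did not overlap. Its log2 fold change was -1.30 ± 0.059 in brain (SE, adjusted p = 4.6e-10) and -1.0 ± 0.048 in kidney (adjusted p = 1.1e-07). The translatome RPKM of Mat2a was 39.7% ± 3.44 of that in total RNA in brain and 49.98% ± 2.50 in kidney.

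Whether the fall differed between the organs was tested as an interaction over the 12 libraries. None of the 6 genes passed at 0.001 with edgeR, 3 had an unadjusted p under 0.05 (Clk3, Ogt and Mat2a), and DESeq2 called 1, Mat2a. The share of all rows at that unadjusted p was not counted. DESeq2 called 1107 rows higher and 1562 lower in this test, against 472 and 829 with edgeR. The fall was larger in brain by 0.49 on the log2 scale for Ogt (adjusted p = 0.01) and by 0.32 for Mat2a (adjusted p = 0.0072). With the tissue sample as a block, which the shared samples allow, both passed: the difference between brain and kidney was -0.51 for Ogt (adjusted p = 2.9e-06) and -0.33 for Mat2a (adjusted p = 0.00023). That fit called 17.1% of all 20108 rows, against 6.47% without the block. Without brain translatome replicate 3, the library with the highest Ogt value, the difference for Ogt was -0.66 (adjusted p = 2.7e-05). For Clk1 and Clk4 the intervals of the difference were -0.41 to 0.31 and -0.10 to 0.42.

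Total RNA itself differed between the organs for some of the genes. Clk3, Clk4 and Ogt were higher in the brain than in the kidney transcriptome, 3 of 6 where 27.2% of all rows were higher, with log2 fold changes of 0.71 (adjusted p = 4.3e-08), 0.59 (adjusted p = 1.7e-06) and 0.56 (adjusted p = 4.4e-06). Clk1 (0.09, 95% interval -0.03 to 0.21) and Clk2 (-0.06, 95% interval -0.16 to 0.04) were not called. Mat2a was lower in brain by 0.19 on the log2 scale and missed the threshold (adjusted p = 0.0013, 26.3% of all rows lower), which it passed with DESeq2 and with the filter of 10 counts.

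Translatomes of single cell types were compared with total RNA of the whole organ next, so these differences hold the change of cell type as well as of RNA class, and all comparisons within an organ share the same transcriptome libraries. All 6 genes were lower in the brain endothelial translatome (24.3% of all rows were), 5 of 6 in the Emx1-lineage translatome (23.8%) and 5 of 6 in the kidney endothelial translatome (18.4%). Of mRNA rows with at least 5 RPKM in total RNA, 33.0%, 25.5% and 21.6% were lower, in the same order. In the brain endothelial comparison 34.4% of these mRNA rows fell more than Clk3, 23.3% more than Clk2 and 21.6% more than Mat2a. Clk1 had 24.2, 25.1 and 28.2 RPKM in brain endothelial, 26.1, 28.8 and 31.6 RPKM in Emx1-lineage and 22.7, 23.8 and 23.8 RPKM in kidney endothelial libraries, each group below every total RNA library. Its log2 fold changes were -1.43 (adjusted p = 1.5e-09), -1.46 (adjusted p = 8.8e-12) and -1.55 (adjusted p = 1.9e-08). Ogt had 21.2, 20.7 and 26.2 RPKM in brain endothelial, 27.0, 32.8 and 28.3 RPKM in Emx1-lineage and 25.4, 24.3 and 27.0 RPKM in kidney endothelial libraries. The log2 fold changes of Ogt were -1.98 (adjusted p = 1.1e-09), -1.78 (adjusted p = 3.1e-12) and -1.34 (adjusted p = 3.8e-08).

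Clk3 was again the exception. Its log2 fold change against total RNA was -0.35 in brain endothelial libraries (adjusted p = 0.00015), 0.05 in the Emx1-lineage (95% interval -0.03 to 0.14) and -0.12 in kidney endothelial libraries (adjusted p = 0.066). The last of these was -0.56 and past the threshold without a composition factor (adjusted p = 6.1e-06). Clk2 lay between -0.60 and -0.83, Clk4 between -0.66 and -1.38 and Mat2a between -0.57 and -0.99 in these 3 comparisons, all past the threshold. In the Emx1-lineage the sign for Clk3 turned with other settings, to -0.10 without a composition factor and -0.05 in a fit of all 21 libraries.

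**Figure D3:**
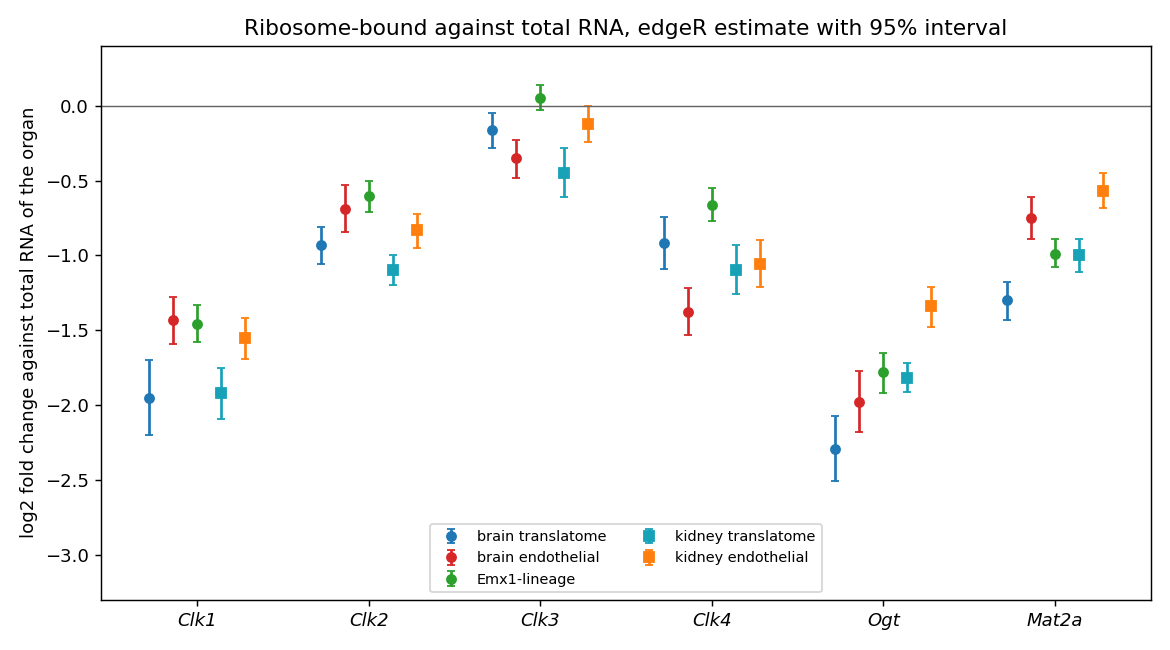
Log2 fold change of each gene in 5 ribosome-bound groups against total RNA of the same organ (edgeR estimates, bars are 95% intervals, 3 against 3 libraries). Clk1 and Ogt lie between -1.34 and -2.29 in each group and Clk3 between -0.45 and 0.05, where the value of 0.05 turns to -0.10 without a composition factor.

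Against the translatome of the whole organ, both sides being ribosome-bound RNA, the differences were much smaller. In brain endothelial cells Mat2a had 42.5, 40.6 and 44.1 RPKM against 37.3, 37.7 and 32.1 RPKM and was higher by 0.54 on the log2 scale (adjusted p = 2.3e-05, 24.8% of all rows higher). Without a composition factor the Mat2a difference was 0.24 (adjusted p = 0.012), no longer past the threshold. Clk4 had 11.9, 13.2 and 12.7 RPKM there, below every brain translatome library, and was lower by 0.48 on the log2 scale (adjusted p = 0.00053, 21.4% of all rows lower). The Clk4 call was lost without brain translatome replicate 1 (adjusted p = 0.0048) or 3 (0.0018), without brain endothelial replicate 1 (0.0027) or 3 (0.0019), and with the replicate number as a block (0.0013). Clk1 was not called (0.50, adjusted p = 0.0043) but passed without brain translatome replicate 1 (0.71, adjusted p = 0.00033), the library with its highest value, and with DESeq2 (0.50, adjusted p = 0.00092).

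In kidney endothelial cells Ogt and Mat2a were higher than in the kidney translatome by 0.40 (adjusted p = 0.00019) and 0.36 (adjusted p = 0.00038), 2 of 6 where 16.7% of all rows were higher. Their RPKM ranges overlapped those of the kidney translatome, since the endothelial libraries carry a composition factor of 0.900 to 0.927 against 1.15 to 1.16. Without that factor the values were 0.03 and -0.01, while the median over rows above 5 RPKM moved from 0.07 to -0.30. The Ogt call was lost without kidney translatome replicate 2 (adjusted p = 0.0011) or 3 (0.0021), and the Mat2a call without any of the 3 kidney translatome libraries (0.0013 to 0.0024) or kidney endothelial replicate 1 (0.0016) or 2 (0.0012).

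In the Emx1-lineage none of the 6 genes passed at 0.001 against the brain translatome with edgeR. By that rule 9.2% of all rows were higher and 12.8% lower. All 6 genes had an unadjusted p under 0.05 and positive log2 fold changes of 0.14 to 0.43. How many of all rows reached that unadjusted p was not counted. The median of 9329 mRNA rows with at least 5 RPKM in the brain translatome was also positive, at 0.07. Of these rows, 63.8% lay below Clk3, the lowest of the 6 genes, and 94.2% below Ogt, the highest. DESeq2 called Clk2 alone (0.24, adjusted p = 0.00044). Clk1 passed without brain translatome replicate 1 (0.62, adjusted p = 0.00035) and Ogt without brain translatome replicate 3 (0.59, adjusted p = 9.2e-06). The brain translatome libraries are the reference of both brain cell types, so these results are not independent of each other.

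Ordered by mean RPKM over the 7 groups, both total RNA groups came first for Clk1, Clk2, Clk4, Ogt and Mat2a, and the gap to the highest translatome held without overlap. Below that, the ranges of neighbouring groups overlapped for Clk1 from the Emx1-lineage (28.9 RPKM) to the brain translatome (22.2 RPKM), and for Clk2 from the Emx1-lineage (20.3 RPKM) to brain endothelial cells (16.9 RPKM). For Clk3, brain total RNA (40.8 RPKM), the Emx1-lineage (38.0 RPKM) and the brain translatome (35.7 RPKM) all lay above kidney total RNA (28.5 RPKM), and the brain endothelial libraries (25.3 RPKM) below it. For Clk4, the endothelial libraries had the lowest RPKM, 12.6 in brain and 11.1 in kidney, but with composition factors the kidney endothelial libraries did not differ detectably from the kidney translatome (-0.03, 95% interval -0.23 to 0.16, adjusted p = 0.78).

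Other genes of the same pathways were then read, as lists chosen with results of these data known. Of all rows, 18.5% were lower and 18.6% higher in the translatome in brain, and 15.8% lower and 14.9% higher in kidney. The SR protein kinases of the SRPK family, which phosphorylate SR proteins mostly in the cytoplasm, fell for 2 of 3 members in both organs: Srpk1 by 0.69 and 0.76 and Srpk2 by 0.42 and 0.44 on the log2 scale, brain and kidney. Srpk3 had 0.091 RPKM in brain total RNA and was not called, but passed in kidney with the replicate block. The kidney block fit had infinite prior degrees of freedom, so it took the spread of each row from a trend common to all rows. Calls gained in kidney with the block therefore do not reflect how far the libraries of that row varied. Of 13 SR proteins and relatives, 5 fell and 1 rose in brain, and 7 fell and 2 rose in kidney, with medians of -0.26 and -0.37. With the replicate block, which called 45.9% of all rows in brain and 49.1% in kidney (37.1% and 30.7% without it), 8 and 11 of them fell. Srsf11 (-1.0 and -0.77) and Srsf6 (-0.80 and -0.56) fell in both organs, Srsf9 rose (0.91 and 0.89), and Tra2b was not called (0.07 and -0.21), though it passed in kidney with the block (adjusted p = 4e-06). Of 10 DYRK and HIPK kinases, relatives in the same kinase group, 2 fell in each organ, 1 rose in kidney, and the medians were -0.18 and 0.14 (with the block, at the same shares of all rows, 4 and 3 fell, and 0 and 4 rose). Prpf4b, a kinase of the spliceosome, fell by 1.16 and 1.04, whereas Dyrk1a (0.20 and 0.19) and Dyrk3 (0.06 and -0.50) were not called and Hipk3 was not called in brain (-0.31) and rose in kidney (0.35). With the block, Dyrk1a (adjusted p = 4.3e-06) and Dyrk3 (5.1e-08) passed in kidney and Hipk3 (3.6e-05) in brain.

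The pathways of Ogt and Mat2a were read next, beside 18.5% of all rows lower and 18.6% higher in brain, and 15.8% and 14.9% in kidney. In the hexosamine and O-GlcNAc pathway (7 genes), 3 fell and 1 rose in each organ, with medians of -0.25 and -0.29. Mgea5, which removes O-GlcNAc, fell by 0.39 in brain and 0.57 in kidney, and Pgm3 by 0.37 and 0.55. Uap1, the enzyme that makes UDP-GlcNAc, rose by 0.38 in brain and was not called in kidney (0.15), and Eogt was not called (-0.01 and 0.15). In the S-adenosylmethionine pathway (12 genes), 4 fell and 2 rose in brain and 4 fell and 1 rose in kidney, with medians of -0.10 and -0.02. Ahcyl2 fell by 0.48 and 0.51. Srm, which makes spermidine, rose (0.59 and 0.39). Mat2b, the regulatory partner of the Mat2a enzyme, rose in brain (0.39) and was not called in kidney (0.01). The row of Amd1 in this list, at 2.03 ± 1.97 RPKM in brain total RNA, was listed at 0 in at least 1 library of every group, and its change is uncertain.

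The next list, also chosen with results of these data known, held nuclear speckle proteins and splicing regulators. In it 14 of 14 fell in brain and 14 of 14 in kidney, with medians of -1.17 and -0.98. Of all rows, 18.5% fell in brain and 15.8% in kidney. Pnisr (-2.27 and -1.60) and Luc7l3 (-2.18 and -1.59), both splicing factors with arginine and serine repeats, fell most in brain, and Rbm39 (-0.37 and -0.61) and Luc7l2 (-0.53 and -0.23) least. As a reference for RNA that is not translated, 6 nuclear or imprinted noncoding RNAs were read in the same libraries. Malat1, a noncoding RNA of nuclear speckles, had 53.6 to 68.2 RPKM in brain total RNA and 1.58 to 2.14 RPKM in the brain translatome. All 6 fell in brain, by 3.32 (Rian) to 6.47 (Meg3) on the log2 scale, with Malat1 at -5.05, Neat1 at -4.27, Miat at -5.82 and Mirg at -5.14. In kidney 5 fell, Malat1 to -3.78, Neat1 to -3.10, Meg3 to -3.57, Mirg to -4.0 and Rian to -1.50. Miat, at 0.665 RPKM in kidney total RNA, was not called there (-0.88 ± 0.504, SE, adjusted p = 0.18). It passed with the block, whose kidney fit did not use the spread of the row itself. The 6 mRNAs thus fell less than each of these 6 RNAs in brain, and less than Meg3, Malat1, Neat1 and Mirg in kidney. In kidney Clk1 (-1.92) and Ogt (-1.82) fell more than Rian. All members but Clk3 had a lower estimate there than Miat, whose estimate was imprecise.

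**Figure D4:**
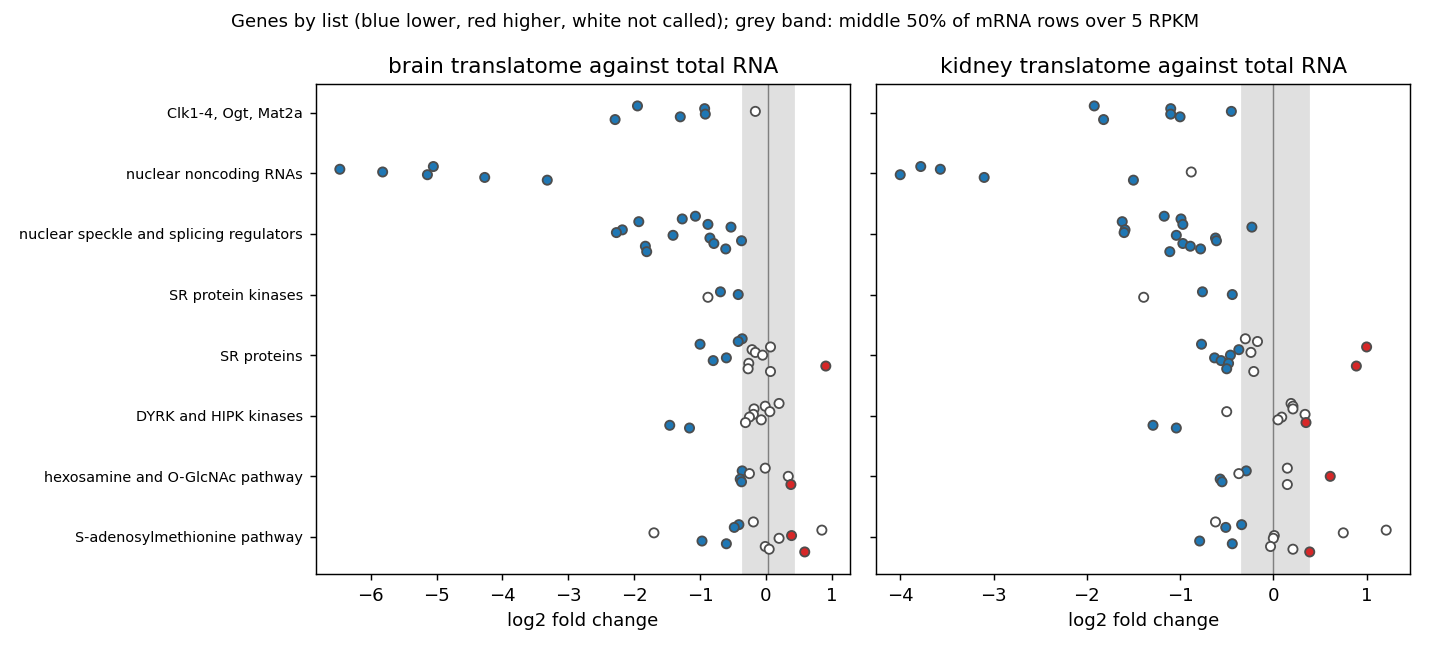
Log2 fold change of single genes in the brain (left) and kidney (right) translatome against total RNA, by list, in blue where lower, red where higher and white where not called at an adjusted p under 0.001. The grey band holds the middle 50% of mRNA rows with at least 5 RPKM; all 14 nuclear speckle and splicing regulators are blue in both panels.

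A wider reading used the GENCODE class retained_intron over all genes, as a description. Of the mRNA rows with at least 5 RPKM in brain total RNA, 94.2% (9071 of 9632) had a GENCODE gene of the same symbol, and 36.5% of these had no retained_intron transcript. Their median log2 fold change in brain was 0.15, against 0.10 for genes with 1 such transcript, -0.06 for 2 to 3, -0.23 for 4 to 5 and -0.40 for 6 or more. In kidney the medians were 0.15, 0.08, -0.12, -0.25 and -0.37. The share of rows that were lower at an adjusted p under 0.001 went from 17.9% to 57.1% over these classes in brain and from 15.9% to 57.6% in kidney. Clk1 (7 transcripts) and Ogt (3 transcripts) lay far below the middle 50% of their classes in both organs, and Clk3 (4 transcripts) lay inside it. The number of annotated transcripts can also follow how much a gene has been studied and expressed, and its part in the result was not tested.

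**Figure D5:**
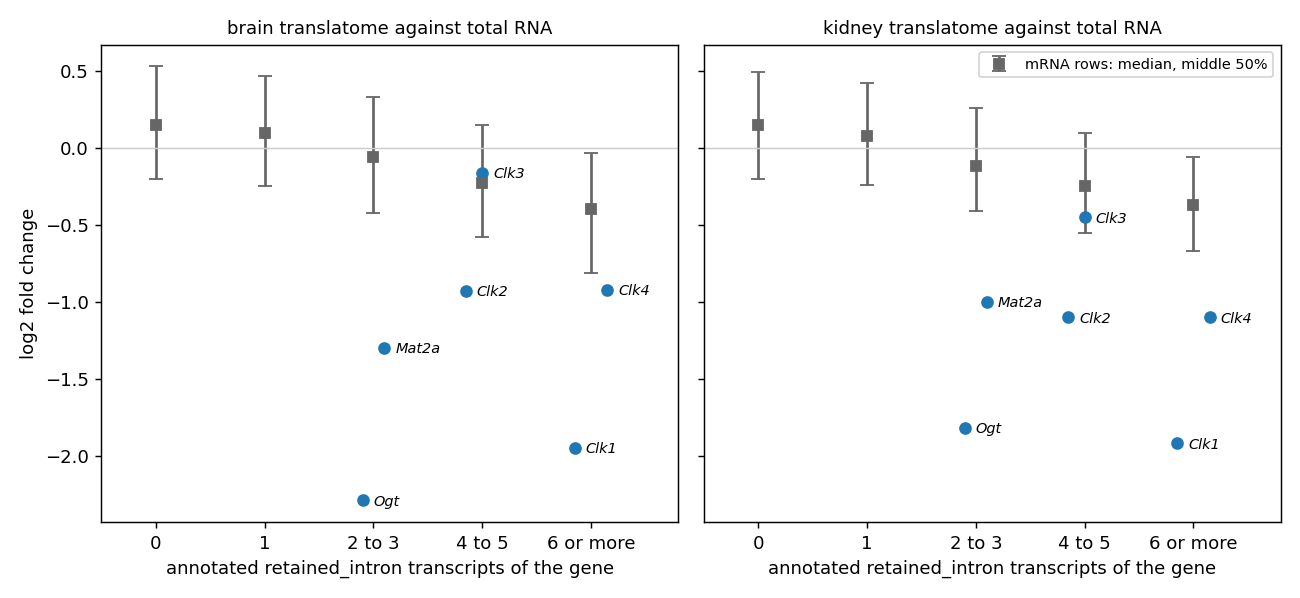
Log2 fold change in the brain (left) and kidney (right) translatome against total RNA by the number of retained_intron transcripts that GENCODE lists for a gene. Squares are medians of mRNA rows with at least 5 RPKM and bars their middle 50%; blue points are the 6 genes, of which Clk3 alone lies within the bar of its class in both panels.

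The rows with the most similar pattern over the 21 libraries were found by Pearson's r of log2(CPM + 1) among 10066 mRNA rows with at least 5 RPKM on average. These values share libraries and depth and are given as a description. Clk1 and Clk2 were each other's nearest row (r = 0.984 over 21 libraries, 0.831 over the 15 translatomes), and Safb2 came next for both (0.983 and 0.977), followed by Snapc4 for Clk1 (0.970) and Atrx for Clk2 (0.969). For Ogt the nearest were Luc7l3 (0.983), Gcfc1 (0.982) and Ddx17 (0.978), which dropped to 0.657, 0.606 and 0.576 within the translatomes. For Clk4 they were Tspyl2, Prpf40b and Gtf2ird2 (0.979, 0.979 and 0.973, and 0.964, 0.951 and 0.926 within the translatomes). For Mat2a they were Gcn1l1, Ltn1 and Srebf1 (0.984, 0.981 and 0.981, and 0.941, 0.966 and 0.930 within the translatomes). Among the nearest rows of Clk3 were Hectd3 (0.984, and 0.987 within the translatomes) and Brox (0.979 in both), and Clk3 had an r of 0.306 with Clk1 and 0.734 with Clk4 (0.415 and 0.916 within the translatomes).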

How the data were processed

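Per the labels and the study's methods, TruSeq libraries (poly(A) selected, no strand mark) were mapped by the authors with RUM to GRCm38 (mm10) and summarised with rpkmforgenes on RefSeq genes. The deposited files hold, per row, read counts without normalization and the RPKM values the authors computed. Samples were grouped by their titles, 7 groups of 3, and none was left out.

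For rows with at least 1 read, counts went into edgeR 4.0.16 under R 4.3.3 (TMM, glmQLFit, glmQLFTest; Benjamini-Hochberg over all rows, called at an adjusted p under 0.001) in 9 pairwise comparisons of 3 against 3 libraries and 1 interaction over 12. On simulated data with 200 changed genes, edgeR recovered 100 of 100 changes of 1 and 100 of 100 of 2 on the log2 scale in the brain comparison of translatome and transcriptome, and 99 and 100 of 100 in the kidney one, with 0 false calls. These 200 are a far smaller share of the 18963 (brain) and 18850 (kidney) rows than the 37.1% and 30.7% called in the data. Scaling and false calls with that many changes were not tested. Members and lists were chosen with earlier results of these data known. The implied length and the retained_intron classes were added after the data were seen. Named context genes are, per list, the lowest and highest 2 changes in brain among genes with at least 5 RPKM there (all genes of lists of up to 6). A few genes that these rules take are not reported here. Sequences and positions were read from GENCODE vM21.

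Equal replicate numbers pair the transcriptome and translatome of an organ: the study lists the same tissue samples, and deviations from group means correlated by 0.497 to 0.678 in brain and 0.548 to 0.609 in kidney for equal numbers, and by at most 0.021 otherwise. Nothing ties numbers to samples in other comparisons. Lanes were taken from the study's sample list, and each cell type has a lane of its own, so lane and cell type cannot be told apart there. Alternatives were DESeq2 1.42.0, other scalings, a count filter, a threshold of 0.05, mRNA rows alone, 1 fit of all libraries, the replicate block, shared lanes and leaving out each library. Depth ranged from 21760652 to 79231692 reads; precision is given as SD of 3 or SE.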

Additional observations from a re-analysis of the deposited data

How the results depend on the processing

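Of the values for single genes, 825 kept direction and side of the threshold, 31 came to pass it, 19 no longer passed and 13 changed sign; of the counts and levels, 611 stayed within their limits and 65 moved. The cause of these moves was not tested beyond what each setting changes by construction.

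Signs turned without a composition factor for Clk3 in the Emx1-lineage against total RNA (-0.10), for Clk2 (-0.07) and Ogt (-0.00) in brain endothelial cells against the brain translatome, for Clk1 (-0.07), Clk2 (-0.18), Clk3 (-0.12) and Mat2a (-0.01) in kidney endothelial cells against the kidney translatome, and for Clk1 between the organs' total RNA (-0.09). Clk3 in the Emx1-lineage was at -0.05 in 1 fit of all libraries. Leaving out single libraries moved Clk4 in kidney endothelial cells against the kidney translatome from -0.09 to 0.04 and the organ difference of Clk1 from -0.27 to 0.09 (0.09 without brain translatome replicate 2, 0.00 without kidney transcriptome replicate 2, 0.04 without kidney translatome replicate 1).

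At an adjusted p under 0.05, 5461 rows were lower in the brain translatome than in total RNA (3596 at 0.001), 4704 higher and 5050 lower in the kidney translatome (2880 and 3049), 6127 lower in kidney endothelial cells against total RNA (3550), 4278 higher and 4302 lower in the Emx1-lineage (1749 and 2442) and 5223 higher and 5286 lower in kidney endothelial cells (3163 and 2837) against the translatomes, and 2107 and 2540 differed between the organs (472 and 829). Of the 6 genes, 3 were then higher and 2 lower in brain endothelial cells, 5 higher in the Emx1-lineage and 5 in kidney endothelial cells against the translatomes, 1 lower in brain total RNA, and 2 fell more in brain. Within shared lanes 2344 rows were higher in brain and 1791 lower in kidney. Without a composition factor 2246 rows were higher and 6864 lower in kidney endothelial cells against total RNA, and 1564 and 5655 against the translatome, with 0 of the 6 genes higher there or in brain endothelial cells, 2 lower in the latter and 2 lower in brain total RNA. The share of calls that were higher then went from 55.7% to 37.8% (brain endothelial) and 60.6% to 27.5% (kidney endothelial) and 58.0% to 45.6% (Emx1-lineage) against total RNA, from 54.3% to 36.1%, 56.3% to 23.0% and 47.2% to 33.9% against the translatomes, and from 50.8% to 40.4% between the organs' total RNA, while the median of rows above 5 RPKM moved from 0.09 to -0.25 in brain endothelial cells and from 0.11 to -0.33 in kidney endothelial cells against total RNA. DESeq2 called 2 of the 6 genes higher in brain endothelial cells and 1 in the Emx1-lineage against the brain translatome, 1 lower in brain total RNA and 1 of the organ differences, with 1107 and 1562 rows. One fit of all libraries called 2 genes higher in brain and 1 in kidney endothelial cells against the translatomes. With 10 counts in 3 libraries, 1164 rows were higher in the Emx1-lineage than in the brain translatome, and 1 gene was lower in brain total RNA. Clk1 on the CPM scale was at 26.5% of its level in total RNA in kidney.

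With the replicate block, 4636 rows were higher and 4860 lower in the kidney translatome, 1467 and 1978 differed between the organs, with 2 of the 6 genes, 1116 were higher in the Emx1-lineage than in the brain translatome, and 0 of the 6 genes were lower in brain endothelial cells than in the brain translatome by edgeR (2 at an unadjusted p under 0.05 without the block, 1 by DESeq2). Without single libraries, 1 to 2 genes were higher and 0 to 1 lower in brain endothelial cells, 0 to 1 higher in the Emx1-lineage (1110 to 1444 rows) and 0 to 2 higher in kidney endothelial cells against the translatomes, and between the organs 255 to 437 rows changed more towards the translatome in brain and 0 to 1 of the 6 genes fell more in brain.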
